A study of Mus musculus with 2 samples.

Results

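Polycomb complex subunits are 9 genes here, Ezh1, Ezh2, Eed, Suz12, Bmi1, Ring1, Cbx2, Cbx7 and Cbx8, taken by symbol from the 43346 mouse genes of the deposited tables. All 9 were found. Total RNA-seq measured them in embryonic day 11.5 livers of the strain B6NCrl, in 2 libraries that the labels number as biological replicates, each from a pool of male and female embryos. Replicate 1 pooled 109 embryos; for replicate 2 the number was not given in the sources used here. Together the libraries make up 1 group with no control, so no condition was compared and no p-value is given; whether the 2 pools share a day or a preparation is not given in the labels. An error given after ± is the SD between the libraries (n = 2).

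Polycomb proteins keep developmental genes silent and work in complexes of 2 main kinds. Polycomb repressive complex 2 (PRC2) adds methyl groups to lysine 27 of histone H3. Its core is an EZH enzyme, Ezh1 or Ezh2, held by the scaffold Suz12 and by Eed, which binds the finished mark and stimulates the enzyme. Polycomb repressive complex 1 (PRC1) attaches ubiquitin to histone H2A through a RING enzyme, Ring1 or Rnf2, paired with a PCGF protein such as Bmi1. In the canonical form of PRC1 a CBX protein such as Cbx2, Cbx6, Cbx7 or Cbx8 reads the methyl mark. In blood formation Bmi1 is known for sustaining stem cells, and Ezh2 is the EZH enzyme typical of dividing cells.

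The libraries held 34344230 and 31477397 estimated counts in replicates 1 and 2. An estimated count is the number of reads a model assigns to a gene. TPM, a share of all transcripts corrected for length, is used wherever genes are compared. Spike-in RNAs took 14.6% and 11.1% of TPM, which lowers every gene's TPM slightly more in replicate 1. The tissue label was checked against its markers: all 8 hepatoblast genes and all 8 red cell genes reached a TPM of 1 in each library, led by Afp (5077 ± 537 TPM) and Trf (2065.5 ± 230.2 TPM) and by Klf1 (377 ± 39.6 TPM) and Tfrc (183 ± 20.6 TPM). Endothelial (6 of 6 genes, led by Egfl7 and Kdr, median 17.1 TPM), mesenchymal (6 of 6, Col3a1 and Col1a1, 89.9 TPM), macrophage (6 of 6, Lyz2 and C1qb, 29.9 TPM), dividing cell (8 of 8, Cdk1 and Rrm2, 306 TPM) and heart muscle (8 of 10) markers were detected too. The RNA is therefore a mixture, and in such bulk samples fewer cells of a type and less RNA per cell cannot be told apart.

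Some of the stretches of RNA that separate the main transcripts of Suz12, Ezh2 and Cbx8 are printed here because the isoform results turn on them. Each was read from the GENCODE M21 transcript sequences (GRCm38). Capitals mark the segment that one transcript has and the other lacks, and lower case marks 15 bases of the transcript on either side. The first is a 69-base coding exon of Suz12 at chr11:79999057-79999125 (plus strand), present in Suz12-201 and absent from Suz12-206. The others of PRC2 are coding segments of Ezh2 (minus strand): a 126-base exon at chr6:47541845-47541970 absent from Ezh2-202, a 117-base exon at chr6:47558178-47558294 absent from Ezh2-203, 27 bases at chr6:47576536-47576562 absent from Ezh2-204, and 15 bases at chr6:47551717-47551731 that Ezh2-204 has and Ezh2-201 lacks. All 5 are whole multiples of 3 bases. The last is a 95-base intron of Cbx8 at chr11:119039999-119040093 (minus strand), spliced out of the protein-coding Cbx8-201 and kept in Cbx8-202.
Suz12 exon: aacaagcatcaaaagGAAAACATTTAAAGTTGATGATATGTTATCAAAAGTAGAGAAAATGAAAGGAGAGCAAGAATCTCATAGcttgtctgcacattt
Ezh2 exon absent from Ezh2-202: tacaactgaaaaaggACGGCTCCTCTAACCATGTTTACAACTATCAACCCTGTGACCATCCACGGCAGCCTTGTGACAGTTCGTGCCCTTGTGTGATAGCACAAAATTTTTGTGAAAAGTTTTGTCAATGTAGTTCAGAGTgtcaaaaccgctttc
Ezh2 exon absent from Ezh2-203: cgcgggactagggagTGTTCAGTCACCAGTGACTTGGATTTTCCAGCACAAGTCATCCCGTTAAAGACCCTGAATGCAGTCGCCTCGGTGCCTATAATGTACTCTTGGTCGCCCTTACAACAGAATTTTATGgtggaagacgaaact
Ezh2 segment absent from Ezh2-204: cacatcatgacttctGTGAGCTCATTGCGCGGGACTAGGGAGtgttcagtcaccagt
Ezh2 segment present in Ezh2-204: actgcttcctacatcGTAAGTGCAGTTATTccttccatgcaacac
Cbx8 intron kept in Cbx8-202: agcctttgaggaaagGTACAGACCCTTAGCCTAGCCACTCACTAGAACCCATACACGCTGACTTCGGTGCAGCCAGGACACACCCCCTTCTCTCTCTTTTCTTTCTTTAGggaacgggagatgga

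The 9 genes spanned a 24.0-fold range of TPM, with Ezh2, Eed and Suz12 above the PRC1 genes. On the deposited posterior means the range was 13.3-fold, because the posterior mean of Cbx7, the lowest gene, was higher (3.26 and 3.79) than its TPM. All 9 reached a TPM of 1 in both libraries, as did 56.6% of 21474 protein-coding genes. Their median was 9.91 TPM in replicate 1 and 13.4 TPM in replicate 2. Over the protein-coding genes detected in this way, the medians were 16.2 and 17.3 TPM. Ezh2, Eed, Suz12 and Cbx2 had a mean above 16.8 TPM, the median of the mean TPM of those genes, and the other 5 were below it. The order was Ezh2, Eed, Suz12, Cbx2, Bmi1, Ezh1, Cbx8, Ring1 and Cbx7.

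Among the PRC2 genes, Ezh2 (ENSMUSG00000029687.12, chromosome 6, 47530139 to 47595341) had the highest level, with 46.1 TPM for replicate 1 and 47.6 for replicate 2, from 2749 and 2515 estimated counts. It lay at percentiles 86.4 and 86.0 of protein-coding genes. Ezh1 (ENSMUSG00000006920.10, chromosome 11, 101191115 to 101226463), the related enzyme with weaker activity, stood at 9.45 and 9.52 TPM from 730 and 750 counts. Ezh2 thus exceeded Ezh1 4.89-fold (log2 ratio of TPM 2.29 ± 0.02) and held 83.0% of the summed EZH TPM in replicate 1 and 83.3% in replicate 2. As a share of estimated counts, without length correction, it held 79.0% (Wilson 95% interval 77.6 to 80.3%) and 77.0% (75.6 to 78.4%), where the interval covers counting error only.

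Eed (ENSMUSG00000030619.8, chromosome 7, 89954654 to 89980983) followed at 39.9 and 38.7 TPM. Suz12 (ENSMUSG00000017548.11, chromosome 11, 79993106 to 80034123) stood at 23.0 and 23.5 TPM. Both libraries therefore gave the same descending order of Ezh2, Eed and Suz12. The step from Ezh2 to Eed was small, 1.19-fold (log2 ratio 0.25 ± 0.06). On protein-coding transcripts alone it was 0.11, and the intervals overlapped. Eed exceeded Suz12 1.69-fold on TPM (0.76 ± 0.06), but on counts, where the longer Suz12 RNA collects more reads, Suz12 was ahead (log2 ratio of Eed over Suz12 -0.17). The estimated counts of Ezh2, Eed and Suz12 were not whole numbers in at least 1 library (tolerance 0.005). Some of their reads were therefore shared out with other genes. The counts of the other 6 members were whole.

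Among the PRC1 genes, Cbx2 (ENSMUSG00000025577.7, chromosome 11, 119022962 to 119031270), a reader that also compacts chromatin, led with 16.9 TPM in replicate 1 and 17.8 TPM in replicate 2. Cbx8 (ENSMUSG00000025578.9, chromosome 11, 119036305 to 119040969) had 5.35 and 5.17 TPM, and Cbx7 (ENSMUSG00000053411.12, chromosome 15, 79915807 to 79971119), the reader known from embryonic and blood stem cells, had 1.88 and 2.02 TPM. Cbx2 exceeded Cbx8 3.26-fold (log2 ratio 1.70 ± 0.09) and Cbx7 8.52-fold (3.09 ± 0.01). Both folds depended on the measure by more than the libraries differed: Cbx2 over Cbx7 was 4.74-fold on posterior means, and Cbx2 over Cbx8 was 8.69-fold on protein-coding transcripts alone and 7.24-fold on estimated counts. Cbx2 and Cbx8 are neighbours, on opposite strands with 5034 bases between them.

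Bmi1 (ENSMUSG00000026739.9, chromosome 2, 18677018 to 18686629) had 9.91 TPM in replicate 1 and 13.4 in replicate 2. Ring1 (ENSMUSG00000024325.8, chromosome 17, 34020792 to 34024680) stood at 4.19 and 2.72 TPM, from 199 and 105 counts. Bmi1 was higher in replicate 2 and Ring1 in replicate 1, and these were the 2 members with the widest spread for their level. Bmi1 exceeded Ring1 in both libraries, 3.34-fold on average (6.21-fold on estimated counts), though the log2 ratio varied (1.22 in replicate 1 and 2.26 in replicate 2).

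**Figure D1:**
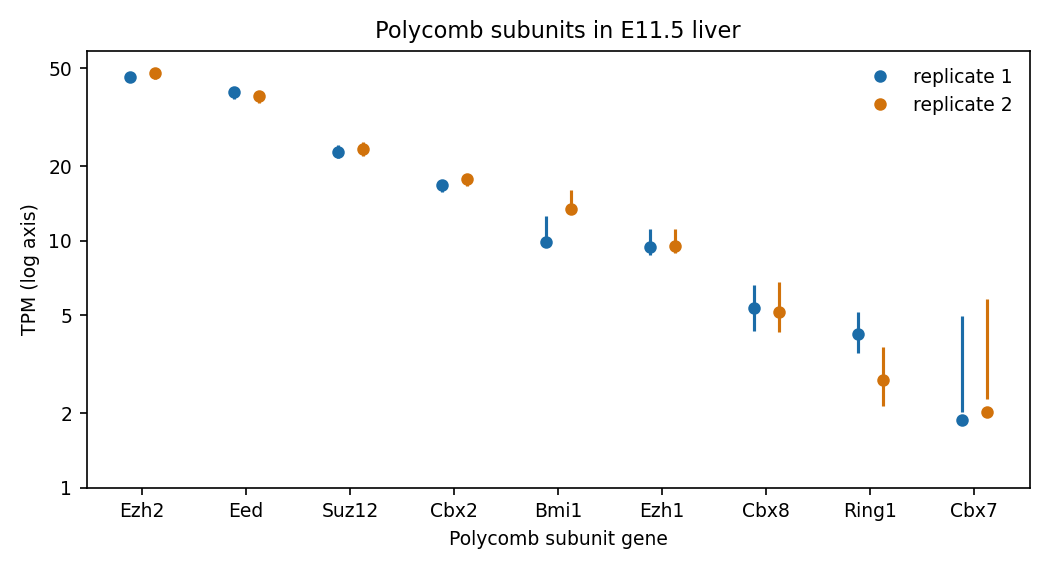
TPM of each Polycomb subunit gene (log axis) in replicate 1 (blue) and replicate 2 (orange), with points at the deposited TPM and vertical lines for the deposited credibility interval. Levels descend from Ezh2 at 46.1 and 47.6 TPM to Cbx7 at 1.88 and 2.02 TPM, and the Cbx7 points lie just under their own intervals.

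The order of levels was stable for most pairs. A pair counted as ordered if the same gene was higher in each library, its deposited interval lay clear of the other's each time, and the mean log2 ratio was larger than the gap between libraries. By this rule 32 of 36 pairs were ordered. The 4 pairs that were not were Bmi1 and Ezh1 (log2 ratio 0.28 ± 0.30), Cbx8 and Ring1 (0.62 ± 0.39), Ring1 and Cbx7 (0.76 ± 0.50) and Cbx8 and Cbx7 (1.39 ± 0.10, but 0.62 on posterior means and 0.11 on protein-coding transcripts alone). With only 2 libraries an exact sign-flip test could not go below p = 0.5, so none was run. The rule weighs the libraries' own estimates and is no test. Cbx7 bears on 2 of the unordered pairs: its interval ran from 2.04 to 4.98 TPM in replicate 1 and from 2.28 to 5.83 TPM in replicate 2, so its TPM lay below its own interval in both. The same held in either direction for 4.07% of 12165 detected protein-coding genes, and for no other member in both libraries. The level of Cbx7 is uncertain to that extent. Its transcripts with 0 counts still had posterior means above 0, the largest 0.77 and 0.88 TPM for Cbx7-209, of 148 bases. For Cbx7-203 (0.92 and 1.24) and Cbx7-201 (0.69 and 0.44), its highest transcripts on TPM, the posterior mean did not exceed the TPM.

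Set against the relatives that can take the same place in a complex, the members ranged from dominant to minor forms. The RING enzymes were unequal: Rnf2 stood at 46.0 and 54.6 TPM, 14.4-fold above Ring1 (log2 ratio 3.85 ± 0.60; 24.6-fold on estimated counts), and Ring1 made up 8.36% of RING TPM in replicate 1 and 4.75% in replicate 2. Among 6 PCGF genes, Bmi1 held 11.8% and 14.2% of the summed TPM. The largest PCGF share belonged to Pcgf6, a subunit of a variant PRC1, with 24.97% and 26.9%. In estimated counts, without length correction, Pcgf3 held the largest share, 39.98% and 37.03%, against 22.1% and 23.5% for Pcgf6. Bmi1 and its closest relative Pcgf2 (10.1 and 8.30 TPM) were not ordered: Pcgf2 was marginally higher in replicate 1 and Bmi1 higher in replicate 2 (log2 ratio of Bmi1 over Pcgf2 -0.021 and 0.69; 1.30 over both libraries on protein-coding transcripts alone).

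Among 4 Polycomb CBX genes (Cbx2, Cbx6, Cbx7 and Cbx8), Cbx2 held 45.3% of the summed TPM in replicate 1 and 45.6% in replicate 2, ahead of Cbx6 with 35.3% and 36.02%. Cbx8 held 14.3% and 13.2%, and Cbx7 5.04% and 5.16%. Each share moved between the libraries by less than the shares differed from one another. The share of Cbx8 was smaller in estimated counts, 6.99% (Wilson interval 6.18 to 7.91%) and 6.61% (5.77 to 7.56%), nearer to the 4.84% (4.16 to 5.62%) and 4.76% (4.05 to 5.58%) of Cbx7. Cbx6 exceeded Cbx7 6.70-fold, an ordered pair, and 3.98-fold on posterior means.

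**Figure D2:**
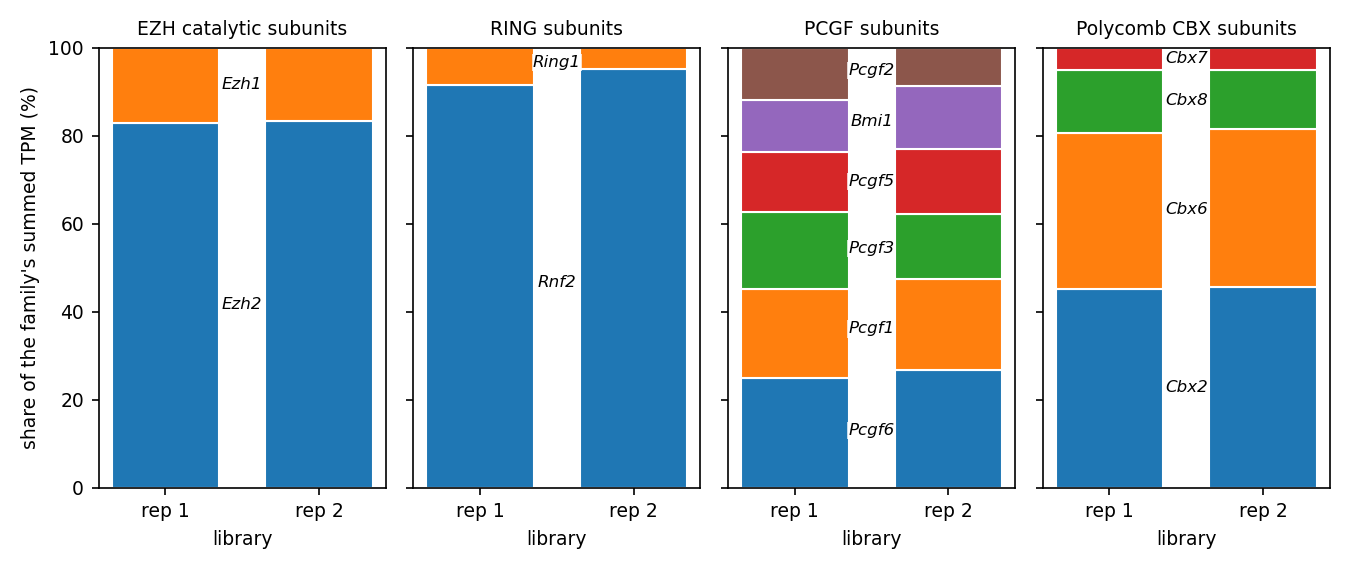
Share of the summed TPM (percent) taken by each gene of 4 Polycomb families in replicate 1 and replicate 2, as stacked bars that start at 0. Ezh2 takes 83.0 and 83.3%, Rnf2 most of the RING total, Pcgf6 the largest PCGF share and Cbx2 45.3 and 45.6% of the total of 4 CBX genes.

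The other genes of the pathway were nearly all present. Of 45 genes on 4 lists of further Polycomb components, 44 were matched by symbol and 43 reached a TPM of 1 in both libraries. Their median was 13.97 TPM in replicate 1 and 14.1 TPM in replicate 2, against 9.91 and 13.4 TPM for the 9 members. The exception was Asxl3 (0.800 and 0.530 TPM), a cofactor of the H2A deubiquitinase. Ezhip had no match by symbol and is not analysed here.

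Histone-binding and accessory subunits of PRC2 were led by Rbbp7 (336 ± 35.9 TPM) and Rbbp4 (263 ± 30.02 TPM), histone chaperones that many other complexes also use. Next came Mtf2 (65.6 ± 3.94 TPM), which helps to recruit PRC2, and Jarid2 (15.1 ± 0.403 TPM), another recruiter. All 9 matched genes of this list were detected. Mtf2 lay above every core PRC2 gene and Jarid2 below Suz12.

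Further ring, PCGF, CBX and PHC genes of PRC1 were led by Rnf2 (50.2 ± 6.08 TPM), Phc2 (31.2 ± 1.79 TPM), Pcgf6 (23.2 ± 3.15 TPM) and Scmh1 (22.4 ± 5.81 TPM). All 12 listed were detected, with a list median of 13.98 ± 0.103 TPM, above the 5.26 ± 0.127 TPM of the 5 PRC1 members. Partners of the variant PRC1 complexes, which need no CBX protein, were led by Yaf2 (60.4 ± 4.24 TPM), Dcaf7 (45.1 ± 5.80 TPM), Kdm2b (39.04 ± 2.65 TPM) and L3mbtl2 (32.1 ± 3.49 TPM), and all 13 were detected. Kdm2b, which brings a variant PRC1 to unmethylated CpG islands, stood close to Eed.

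On the list of the H2A deubiquitinase with its partners and the H3K27 demethylases, all but Asxl3 of the 10 genes were detected. Ogt (99.7 ± 3.87 TPM), Bap1 (63.5 ± 6.19 TPM), the enzyme that removes ubiquitin from H2A, and Hcfc1 (55.3 ± 0.0495 TPM) were the highest, followed by Asxl2 (17.2 ± 1.77 TPM). Ogt and Hcfc1 act in many other processes as well. The HP1 genes Cbx3 (368 ± 8.99 TPM), Cbx5 (93.2 ± 9.34 TPM) and Cbx1 (62.1 ± 5.24 TPM), which share the chromodomain but bind a different histone mark, all lay above Cbx2, Cbx6, Cbx7 and Cbx8.

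In level alone, the genes nearest to the members on these lists were Dcaf7 to Ezh2, Kdm2b to Eed, Pcgf6 to Suz12, Pcgf2 to Ezh1, Asxl1 to Bmi1, Epop to Ring1, Asxl2 to Cbx2, Scml2 to Cbx7 and Bcorl1 to Cbx8. The gaps were at most 0.09 in log2 TPM. With 2 libraries of 1 group there is no profile across conditions by which genes could be matched.

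Textbook targets of Polycomb silencing were mostly near the lower limit of detection. Of 15 listed genes, 4 reached a TPM of 1 in both libraries: Lhx2 (8.42 ± 0.0566 TPM), Hand1 (7.91 ± 0.742 TPM), Tbx5 (3.19 ± 0.742 TPM) and Hoxa9 (1.58 ± 0.141 TPM). These are transcription factors with known roles in mesenchyme, heart, limb or blood progenitors. The list median was 0.20 TPM in replicate 1 and 0.10 TPM in replicate 2, against 2.82 and 2.87 TPM over all protein-coding genes. Cdkn2a, the cell cycle inhibitor locus that Bmi1 is known to repress, was at 0 counts in each library, and 3 counts, the limit that 0 allows, would be 0.150 TPM for replicate 1 and 0.172 for replicate 2. Its neighbour Cdkn2b had 18 and 7 counts (0.540 and 0.240 TPM). The neural and posterior genes Pax2, Pax3, Pax6, Neurog1, Neurog2, Olig2, Nkx2-2, Hoxa13 and Hoxd13 were all under a TPM of 1 in both libraries, with Pax3 the highest of them on TPM at 0.420 and 0.350. The TPM of Pax6, 0.19 and 0.10, lay below its own interval in both libraries (0.706 to 1.67 and 0.682 to 1.73), and its posterior means were 1.17 and 1.18, which would make it the fifth target at 1 or more. The data hold no measure of histone marks at these genes.

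**Figure D3:**
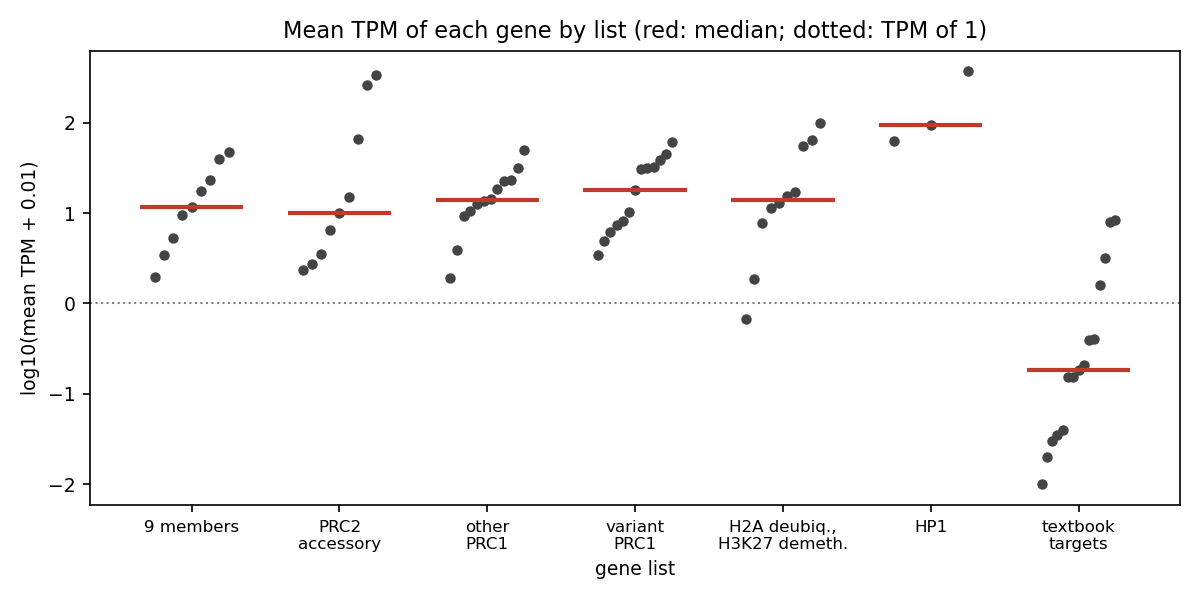
Mean TPM of each gene over the 2 libraries, as log10 of TPM plus 0.01, for the 9 members, 4 lists of further Polycomb genes, the HP1 genes and textbook Polycomb targets; red bars are list medians and the dotted line is a TPM of 1. Every member lies above the line, as do 43 of the 44 matched genes of the 4 lists, while 11 of 15 targets lie under a TPM of 1 in both libraries.

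Isoforms were estimated from the same reads. Each member had between 2 and 12 annotated transcripts in the deposited tables. Of the 9 members, 8 had the same main transcript, the one with the highest TPM, in both libraries. The exception was Suz12. Of 8953 detected protein-coding genes with 2 or more transcripts, the main transcript differed in 9.25%.

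Suz12 was split between 2 protein-coding transcripts that differ by the 69-base exon printed above and by 1 base at their end. Suz12-201, with the exon, had 11.6 TPM in replicate 1 and 9.30 TPM in replicate 2. Suz12-206, without it, had 7.89 and 10.7 TPM. Their deposited intervals overlapped in both libraries, 8.02 to 16.4 against 2.64 to 11.1 TPM in replicate 1 and 5.51 to 11.7 against 7.80 to 14.1 TPM in replicate 2. The change of main transcript was therefore within the uncertainty of the estimates. The transcript lacking the exon took 34.3% and 45.7% of Suz12 TPM, and a retained-intron transcript, Suz12-203, took 12.1% and 10.8%.

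Ezh2 was carried mainly by Ezh2-201, with 64.5% and 67.6% of its TPM. Ezh2-202, which lacks the 126-base exon and stretches of 402, 7 and 137 bases, had 5.13 and 5.03 TPM (11.1% and 10.6%). Those stretches are not wholly inside the coding sequence, and whether they hold part of it was not examined. Nor was it examined what Ezh2-202 has that Ezh2-201 lacks. Ezh2-204, which lacks the 27-base segment and holds the 15-base one, had 4.18 and 4.83 TPM. The intervals of both excluded values near 0, starting at 3.55 and 3.16 TPM for Ezh2-202 and at 2.38 and 2.58 TPM for Ezh2-204. Ezh2-203, which lacks the 117-base exon, was assigned 0 counts in both libraries, although its intervals reached 1.94 and 2.04 TPM. The retained-intron transcript Ezh2-207 had 2.74 TPM in replicate 1 and 2.02 TPM in replicate 2.

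Cbx8 was the only member whose main transcript was not protein-coding. Cbx8-202, which keeps the 95-base intron, had 2.81 TPM in replicate 1 and 3.33 TPM in replicate 2. The protein-coding Cbx8-201 had 1.98 and 1.84 TPM. Protein-coding transcripts made up 37.0% and 35.6% of Cbx8 TPM but 75.9% and 73.6% of its estimated counts, because Cbx8-202 is 789 bases long and Cbx8-201 is 3580, so that 50.1 and 51.7 counts on the short RNA gave more TPM than 178 and 144 on the long one. The intervals overlapped in both libraries (1.49 to 3.87 against 1.62 to 2.27 TPM in replicate 1, and 1.61 to 4.25 against 1.47 to 2.13 TPM in replicate 2). A main transcript that was not protein-coding in both libraries was found for 6.76% of 8953 detected protein-coding genes. Total RNA includes unspliced RNA, whose part in these transcripts was not tested.

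Cbx2 and Eed were the simplest cases, with Cbx2-201 at 100% of Cbx2 TPM in both libraries and Eed-201 at 98.0% and 98.6% of Eed TPM. Bmi1 was divided between Bmi1-201 (8.04 and 8.92 TPM) and Bmi1-202 (1.87 and 4.04 TPM). Bmi1-201 has 452 bases at its start and 499 at its end that Bmi1-202 lacks, and Bmi1-202 has 104 of its own. None of these stretches lies wholly inside the coding sequence, and whether they hold part of it was not examined. Bmi1-202 accounts for most of the higher Bmi1 TPM of replicate 2. Its intervals, 0.632 to 3.07 and 1.94 to 5.84 TPM, overlapped. Ring1-201 carried 75.5% and 68.8% of Ring1 TPM, and the rest lay on retained-intron transcripts. Cbx7 was divided between Cbx7-203 (0.960 and 1.24 TPM) and Cbx7-201 (0.700 and 0.530 TPM).

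For Ezh1 the split is uncertain. Ezh1-203 was given 5.78 and 7.34 TPM, above the upper ends of its own intervals at 4.94 and 7.18 TPM. Ezh1-202 was given 0.0500 TPM in replicate 1, under an interval of 0.625 to 5.66 TPM. Their RNA differs by 1 base at one end and 13 at the other, so few reads can tell them apart. The posterior mean in replicate 1 put Ezh1-202 first instead. Protein-coding transcripts carried 69.5% and 83.7% of Ezh1 TPM, and 93.6% and 97.0% of its counts.

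**Figure D4:**
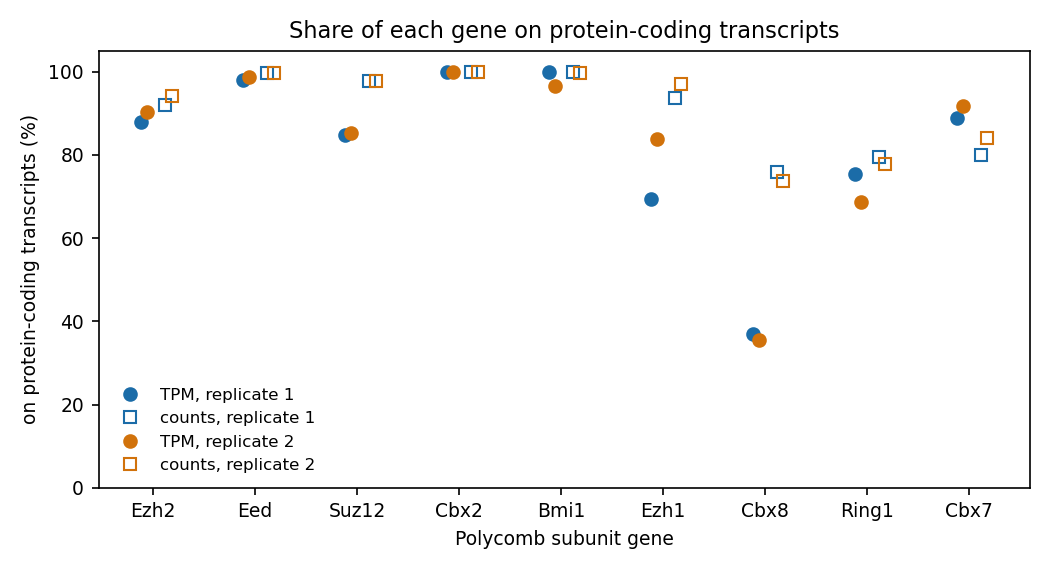
Share of each Polycomb subunit gene (percent) that lies on protein-coding transcripts, by TPM (filled circles) and by estimated counts (open squares), in replicate 1 (blue) and replicate 2 (orange). Cbx8 stands apart with 37.0 and 35.6% by TPM against 75.9 and 73.6% by counts, while Cbx2 is at 100%.

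Scaled for library size with TMM factors, 0 of 9 members were at least 2-fold apart, against 4.38% of 16607 genes that averaged at least 10 counts (2.91% higher in replicate 1 by that much); all 9 passed this filter. All 9 also averaged at least 100 counts, and of the 12053 such genes only 0.265% were 2-fold apart. The median log2 ratio of replicate 1 to replicate 2 was 0.05 over the members and -0.0026 over all genes tested. By these scaled counts 7 of 9 members were higher in replicate 1, against 49.4% of genes tested. On TPM only 3 members (Eed, Ring1 and Cbx8) were, against 35.9%, so the direction of the small differences turned with the scale. That TPM includes the spike-in RNAs, which took 14.6% in replicate 1 and 11.1% in replicate 2. On TPM of mouse genes alone, Ezh1 (11.06 and 10.71), Ezh2 (53.95 and 53.47) and Suz12 (26.89 and 26.44) were also higher in replicate 1. Bmi1, Cbx2 and Cbx7 stayed higher in replicate 2. Over 11522 protein-coding genes that averaged at least 100 counts, the log2 ratio had an SD of 0.20. Ezh2 (log2 ratio 0.02), Cbx2 (0.01), Suz12 (0.05), Cbx7 (0.09), Eed (0.12), Cbx8 (0.14) and Ezh1 (-0.15) lay within that SD.

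Ring1 stood apart, with 1.75-fold more scaled counts in replicate 1 (log2 ratio 0.81, exact binomial 95% interval 0.46 to 1.17). Among all 12053 genes that averaged at least 100 counts, 0.539% had a ratio at least this far from 0. On TPM the difference was smaller, 1.54-fold. Bmi1 differed in the opposite direction, 1.20-fold higher in replicate 2 (log2 ratio -0.26, interval -0.40 to -0.13), a size reached by 13.8% of those genes. The interval left out 0 for 4 of 9 members, Ring1 and Eed above it and Bmi1 and Ezh1 below it. The background was 39.0% of genes tested, of which 17.9% were higher in replicate 1 and 21.1% in replicate 2, so the share among the members was near that of all genes. For Ezh1 (-0.30 to -0.0021) the interval took in 0 with DESeq2 size factors or total counts. The interval covers counting error only, and each pool is 1 library.

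Markers of other cell types moved between the pools as well. All 10 heart muscle markers were higher in replicate 1, with a median of 20.2 TPM there and 6.57 TPM in replicate 2 and log2 ratios from 0.92 to 2.19, led in level by Myl7 (88.9 ± 42.4 TPM) and Actc1 (53.2 ± 28.6 TPM). Of 8 red cell markers, 7 were higher in replicate 2 (8 on TPM), with log2 ratios from -0.24 to 0.03. Dividing cell markers ran from -0.20 to 0.08, with 6 of 8 higher in replicate 2 (8 on TPM). The TPM counts include the larger spike-in share of replicate 1. On TPM of mouse genes alone, Mki67 (70.4 and 67.6), Birc5 (392.6 and 389.6) and the red cell marker Epor (109.06 and 108.67) were higher in replicate 1. The part of these cell types in the differences of Ring1 and Bmi1 was not tested.

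**Figure D5:**
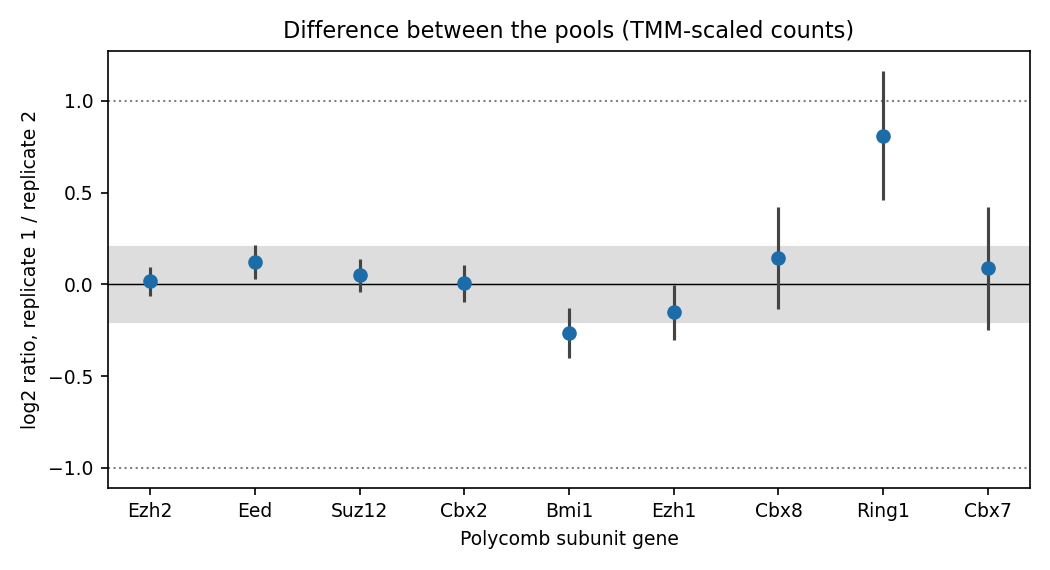
Log2 ratio of TMM-scaled counts of replicate 1 to replicate 2 for each Polycomb subunit gene (points) with its exact binomial 95% interval (lines); the grey band is 1 SD of the protein-coding genes averaging at least 100 counts and dotted lines mark 2-fold. Ring1 lies at 0.81 and Bmi1 at -0.26, outside the band, and the other 7 genes lie inside it.

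In position, 4 of the 9 members (Ezh1, Suz12, Cbx2 and Cbx8) lie on chromosome 11, and the other 5 lie on 5 different chromosomes. Some overlap other genes, which matters because the labels do not say whether strand was used in counting. The end of Cbx7 shares 100 bases with Apobec3 on the opposite strand, and Apobec3 had 75.4 and 79.3 TPM, so without strand its reads and those of Cbx7 cannot be told apart there. The estimated counts of Cbx7 (162 and 141) and Apobec3 (2907 and 2809) were whole numbers, so no split of reads between these genes shows in them. Eed shares 261 bases at its start with the weakly expressed E230029C05Rik (1.57 and 1.49 TPM). Gm26625 lies within Ezh2 (0.520 and 0.510 TPM) and Gm26563 within Suz12 (3.37 and 2.52 TPM), both on the opposite strand. Eed had 1993.45 and 1693.3 estimated counts, beside 40.55 and 33.7 for E230029C05Rik. Suz12 had 2184.53 and 1954.41, beside 146.47 and 96.59 for Gm26563. Within each of these pairs the fractional parts complete each other in both libraries. Whether strand was used in counting was not tested. Commd3 ends 786 bases before Bmi1 on the same strand and stood at 105 and 106 TPM.

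Promoters of 8 members were found in the RefSeq table (GRCm38.p6), each 250 bases before to 50 bases after the start; Cbx2 had no entry. They held between 17 (Eed) and 41 (Suz12) CpG dinucleotides, against a median of 7 over 32544 promoters, and between 54.7% and 74.0% GC, against 53%. The E2F consensus of cell cycle genes was searched on both strands as the words TTTCCCGC, TTTCGCGC, TTTGCCGC and TTTGGCGC. It was present in 2 of 8 members, Ezh2 (TTTGGCGC) and Suz12 (TTTCCCGC), and in 2.28% of all promoters. Each of these words holds a CpG, and the windows of Ezh2 and Suz12 are rich in CpG (31 and 41). The share over all promoters was not matched for CpG content, so the 2 figures are not a like comparison. The word CCAAT was present in 5 of 8, with 3 copies in Ezh2, and in 37.4% of all promoters. The windows of the EZH pair, whose levels differ 4.89-fold, are printed below with the E2F word in capitals: Ezh2 at chr6:47594981-47595280 and Ezh1 at chr11:101226414-101226713, both read on the minus strand. A match of letters is a description and shows no binding.
Ezh2 promoter: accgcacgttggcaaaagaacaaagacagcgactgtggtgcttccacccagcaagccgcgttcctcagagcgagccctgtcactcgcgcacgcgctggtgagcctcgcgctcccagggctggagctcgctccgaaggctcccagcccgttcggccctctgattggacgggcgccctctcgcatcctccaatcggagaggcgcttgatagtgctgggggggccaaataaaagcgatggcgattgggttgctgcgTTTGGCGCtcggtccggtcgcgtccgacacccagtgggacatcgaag
Ezh1 promoter: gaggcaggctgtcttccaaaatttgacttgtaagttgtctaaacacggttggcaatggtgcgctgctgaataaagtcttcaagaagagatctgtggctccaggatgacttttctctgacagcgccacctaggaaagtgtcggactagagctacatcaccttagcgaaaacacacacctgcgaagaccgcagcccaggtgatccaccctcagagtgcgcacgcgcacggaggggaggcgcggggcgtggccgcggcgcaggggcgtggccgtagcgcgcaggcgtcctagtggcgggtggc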

How the data were processed

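Per the labels' protocols, 10 ng of total RNA went into each of 2 libraries. Per the deposited notes, reads were placed on mm10 with GENCODE M4, from transcriptome alignments; the quantifier was not given in the sources used here. Values deposited are estimated counts, TPM, FPKM and, per transcript, the percent of a gene's expression. Per the file headers every TPM comes with a posterior mean and the bounds of a credibility interval, read here as a signal; their level is not stated. Symbols and coordinates came from GENCODE M21 (GRCm38, the assembly of mm10).

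Members were matched by Ensembl identifier. Estimated counts were rounded and scaled over mouse genes with TMM factors (edgeR 4.0.16) or DESeq2 1.42.0 size factors, in R 4.3.3. Pseudocounts were 0.1 TPM for pairs and 0.5 counts for libraries. Intervals are 95%. A count of 0 allows 3 counts. Python 3.11.15, pandas 2.3.3, scipy 1.17.1 and matplotlib 3.10.9 were used, and the ratio step was tested on simulated data. Each other list's 4 highest genes, genes under a TPM of 1 and pair genes were named; of each marker list, the 2 highest; of transcripts, those with 20% of a gene's TPM, and others chosen after their values were seen. Some listed genes are not reported here, and the lists, shares and pairs were computed without them. The members and lists were chosen with earlier results of these data known.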

Additional observations from a re-analysis of the deposited data

How the results depend on the processing

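Of 105 alternative values, 99 kept their call or, for counts, stayed within 1.5 times and, for medians, within the SD. Among these 99, Bmi1 over Pcgf2, an unordered pair, changed sign to -0.021 without replicate 2, the targets detected rose from 4 to 5 on posterior means, and the members whose interval left out 0 fell from 4 to 3 with DESeq2 size factors or total counts. The median TPM of the 9 members, 11.7, was 8.53 as FPKM, and without replicate 1 or 2 it was 13.4 or 9.91. With 2 libraries, leaving 1 out cannot move this median beyond the SD, so these leave-out medians were bound to be counted as kept. With estimated counts in place of TPM, which drops the length correction, the log2 ratio of Eed over Suz12 turned from 0.76 to -0.17. The pairs Bmi1 over Pcgf2 (2.03) and Cbx8 over Cbx7 (0.50, down from 1.39) became ordered. For counts, intervals of counting error alone replaced the deposited intervals, so the rule changed with the measure. The part of each change in these calls was not tested. Without replicate 1 Bmi1 over Pcgf2 was ordered at 0.69. With 1 library the conditions on equal order and on the gap between libraries cannot fail, so the rule is laxer there. The levels on protein-coding transcripts alone, an alternative added after seeing the data, left Ezh2 over Eed at 0.11 and no longer ordered, and 24 of 36 pairs ordered instead of 32, with 8 lost and 0 turned; there the bounds of several transcripts were summed, which widens the intervals. No paired analysis was possible because the samples form 1 group. Depth limits the low genes: Ring1, Cbx7 and Cbx8 rest on 105 to 234 counts a library.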
